A study of Mus musculus with 6 samples.

Results

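A set of 9 genes of retinoid metabolism and signalling was followed in the small intestinal epithelium of mice that differed in their exposure to microbes and food antigens. These 9, among the 51912 genes listed, were taken by symbol and cover binding (Rbp2), ester formation (Lrat), saturation (Retsat), retinol and retinal conversion (Rdh7, Dhrs3), retinoic acid synthesis (Aldh1a1, Aldh1a3), retinoic acid clearance (Cyp26b1) and a receptor (Rarb). Sorted epithelial cells of C57BL/6 small intestine were sequenced as total RNA from antigen-free (AF) mice, which met foreign antigens from neither microbes nor food, from germ-free (GF) mice, which had no microbiota, and from specific pathogen free (SPF) mice, which were free of particular pathogens only. Each group had 2 libraries, named by the numbers in their titles: AF replicates 2 and 3, GF replicates 1 and 3, and SPF replicates 3 and 4. AF versus GF sets mice without food antigens against mice that had them, neither having a microbiota. GF versus SPF sets mice without a microbiota against mice with one, and AF versus SPF joins the 2 differences. The diets of the groups are not described, and they may have differed in more than antigens, such as in vitamin A or carotenoids. Food antigens and the rest of the diet therefore cannot be told apart in comparisons with AF. The title of the series is about antigen presentation and food antigens, and the retinoid genes are a separate question put to the same libraries. The labels name no age, sex, diet composition, number of animals behind a library or surface marker of the sort, and no genotype other than the strain. They do not say that the 2 libraries of a group are from different mice, so a p-value here reflects only how far these libraries spread, which may be technical.

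Vitamin A reaches the body as retinyl esters and provitamin A carotenoids. The enterocyte takes both up, cleaves carotenoids to retinal, reduces retinal to retinol, and holds retinol on a binding protein while it is esterified and packed into chylomicrons for the lymph. A smaller flow is oxidised through retinal to retinoic acid, a ligand of the nuclear receptors RAR and RXR, which in the gut is known for its part in lymphocyte homing and oral tolerance.

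The libraries totalled 16109488 to 19417054 expected counts per library, so that 3 counts, taken as the floor, stood for 0.109 to 0.236 CPM (counts per library total, set to a fixed scale). The totals are scaled by TMM, edgeR's trimmed mean normalisation, and TPM, which are also per base of transcript, serve where genes are set against each other. Mitochondrial genes held 35.3% and 28.7% of the counts in AF, 17.9% and 32.1% in GF and 18.1% and 27.2% in SPF libraries. TPM are not scaled between libraries. By limma on log2(TPM + 1) the median log2 fold change of all genes was -0.36 in AF versus GF and -0.31 in AF versus SPF. TPM in AF thus lay lower for genes in general. All 8 enterocyte and all 6 general epithelial markers had at least 10 counts in every library, whereas 2 to 4 of the 9 markers of stroma and vessel were at 0. The summed level of the enterocyte markers ran from 19139 to 26004 CPM in AF, from 16570.3 to 28272 CPM in GF and from 23881 to 51344 CPM in SPF libraries, with the top in SPF replicate 4. The 8 crypt markers ran the other way within SPF, with 60.4 CPM in replicate 4 and 923 CPM in replicate 3, and lymphocyte markers reached 283 CPM in GF replicate 3 against 10.9 to 14.1 CPM in AF libraries. The sum of 4 Y-linked genes was 53.1 to 59.7 CPM in AF and 52.2 to 61.7 CPM in GF libraries and 0 in both SPF libraries, while Xist had at most 0.178 CPM in AF, 0.109 and 14.8 CPM in GF, and 129.7 and 96.6 CPM in SPF libraries. Sex and microbiota therefore cannot be told apart in comparisons with SPF. GF replicate 3 had both Y-linked transcripts, at 52.2 CPM, and Xist, at 14.8 CPM. The part of sex in AF versus GF was not tested either. A date-like mark in the tables' names also differs between the groups, so that a date and the group cannot be told apart.

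The promoters shown are those of the most abundant of the 9 genes (Rbp2), of the one with the widest gap between AF and the other libraries (Aldh1a1) with its neighbouring paralogue Aldh1a7, and of a textbook retinoic acid target (Rarb). Each is the stretch from 250 bases before to 50 bases after a RefSeq start on GRCm38.p6, written 5′ to 3′ on the strand of the gene. Capitals mark 4 half-sites of nuclear receptors that were searched for on both strands. The search covered the consensus half-site AGGTCA and, beside that consensus, the variant that reads GGGTCA, the variant that reads AGTTCA and the variant that reads GGTTCA. A half-site on the other strand stands in the run as its reverse complement.
Rbp2, chr9:98490287-98490586, plus strand: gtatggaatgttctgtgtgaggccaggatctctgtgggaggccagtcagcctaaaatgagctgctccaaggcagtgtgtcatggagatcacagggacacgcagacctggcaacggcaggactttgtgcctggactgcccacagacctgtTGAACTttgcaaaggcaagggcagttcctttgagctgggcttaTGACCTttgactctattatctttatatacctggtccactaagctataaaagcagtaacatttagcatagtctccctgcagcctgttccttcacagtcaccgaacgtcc
Aldh1a1, chr19:20601718-20602017, plus strand: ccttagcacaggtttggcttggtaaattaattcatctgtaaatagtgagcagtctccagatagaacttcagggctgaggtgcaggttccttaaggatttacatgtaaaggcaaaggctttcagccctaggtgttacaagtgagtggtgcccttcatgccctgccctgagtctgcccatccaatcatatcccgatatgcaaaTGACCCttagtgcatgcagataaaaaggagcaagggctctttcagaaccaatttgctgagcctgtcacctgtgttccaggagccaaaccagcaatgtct
Aldh1a7, chr19:20727507-20727806, minus strand: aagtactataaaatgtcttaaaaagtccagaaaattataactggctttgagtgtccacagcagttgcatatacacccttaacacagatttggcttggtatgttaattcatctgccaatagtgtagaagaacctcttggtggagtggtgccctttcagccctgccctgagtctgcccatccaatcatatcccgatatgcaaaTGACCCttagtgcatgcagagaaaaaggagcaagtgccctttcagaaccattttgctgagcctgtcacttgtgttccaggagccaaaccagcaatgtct
Rarb, chr14:16575427-16575726, minus strand: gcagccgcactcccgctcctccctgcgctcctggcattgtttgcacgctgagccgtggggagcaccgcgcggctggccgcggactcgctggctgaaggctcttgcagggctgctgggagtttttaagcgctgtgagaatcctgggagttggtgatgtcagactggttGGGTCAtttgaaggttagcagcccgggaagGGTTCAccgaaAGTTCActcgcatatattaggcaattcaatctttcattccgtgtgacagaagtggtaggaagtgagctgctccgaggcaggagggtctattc

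The RefSeq table held promoters for 8 of the 9 genes, with 12 windows in all, and 6 of these windows carried a half-site. Over all 32851 promoters in the table, 43.7% carried at least 1 of the 4 half-sites. The Rarb window held GGGTCA, which stands in 13.7% of all promoters, 83 bases before the start. It also held GGTTCA and AGTTCA in the same direction and 5 bases apart, from 53 to 37 bases before the start, which is the arrangement of the known retinoic acid response element of this gene. Such a pair of these half-sites at that distance stood in 32 of the 32851 promoters, or 0.0974%. The transcript of Rarb in the deposited tables begins at 16575543, before the repeat at 16575513 to 16575529 on this minus strand gene, so that the repeat lies downstream of that start. The Rbp2 window held 2 half-sites on its other strand, AGGTCA (in 16.3% of promoters) 58 bases and AGTTCA (in 14%) 101 bases before the start, and a TATAAA (in 8.32%) 15 bases before it. The Aldh1a1 window held 1 half-site, GGGTCA on the other strand 49 bases before the start, and the Aldh1a7 window held the same letters at the same place. Over their alignment of 322 columns the Aldh1a1 and Aldh1a7 windows were identical at 233, or 72.4%, whereas the Aldh1a1 and Rbp2 windows reached 51.7%. These matches describe the letters of the windows only.

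The 9 genes covered a range from among the most abundant transcripts of the epithelium to a few reads. Rbp2 stood at rank 24 to 41 of all genes by TPM in the 6 libraries, Rdh7, Aldh1a1, Retsat and Dhrs3 between 17.4 and 194 TPM, Lrat at 2.09 to 4.80 TPM and Aldh1a3, Cyp26b1 and Rarb below 1 TPM throughout. Aldh1a1 had rank 2 among the 9 in all 4 GF and SPF libraries, but rank 4 in AF replicate 2 and rank 5 in AF replicate 3, where Rdh7 had rank 2. After a filter on low counts 7 of the 9 were tested, and Cyp26b1 and Rarb were not. In bulk RNA, fewer cells of a type and less RNA per cell cannot be told apart.

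**Figure D1:**
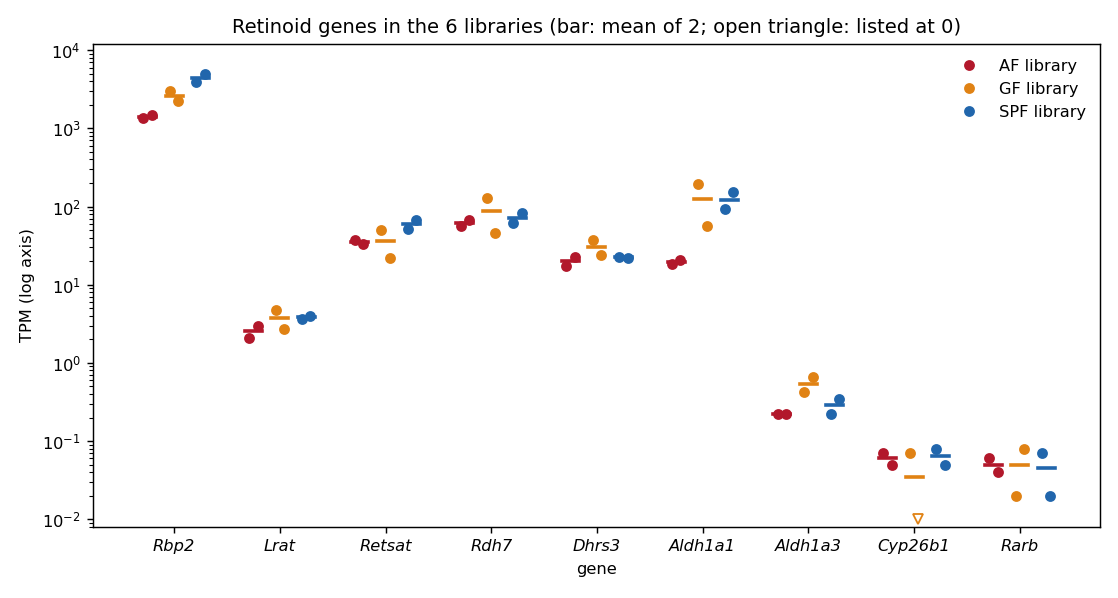
TPM on a log axis (vertical) of the 9 retinoid genes (horizontal) in each AF, GF and SPF library, with points for libraries and bars for the mean of 2; the open triangle is Cyp26b1 in GF replicate 3, listed at 0. Rbp2 lies above 1000 TPM in every library, and the 2 AF points of Aldh1a1, at 18.3 and 20.7 TPM, lie below all GF and SPF points, the lowest of which is 56.5 TPM.

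With edgeR's quasi-likelihood test and Benjamini-Hochberg adjustment over the 13644 genes tested, 0 of the 7 tested retinoid genes passed an adjusted p of 0.05 in any comparison, nor in the test for any difference among the 3 groups. Among all genes 0.0147% passed in AF versus GF, 0.044% in AF versus SPF, 0.0147% in GF versus SPF and 0.0293% in the test for any difference, so that a count of 0 among 7 genes is near the background. At an unadjusted p below 0.05 there was 1 of the 7 in AF versus GF (Aldh1a1), 2 in AF versus SPF (Aldh1a1 and Rbp2) and 1 in GF versus SPF (Retsat), all of them lower. Of all genes, 2.07% were lower at that threshold in AF versus GF, 6.52% in AF versus SPF and 3.51% in GF versus SPF. DESeq2's Wald test called 1 of the 7 in AF versus GF, 1 in AF versus SPF and 0 in GF versus SPF, and the gene called was Aldh1a1 each time. Of the genes to which DESeq2 gave an adjusted p it called 0.381% in AF versus GF, 2.03% in AF versus SPF and 0.586% in GF versus SPF. edgeR's likelihood ratio test called Aldh1a1 in AF versus SPF and none of the 7 in AF versus GF or GF versus SPF, when it called 2.18% of all genes in AF versus SPF, 0.388% in AF versus GF and 0.711% in GF versus SPF. The median log2 fold change of the 7 genes was -0.15 in AF versus GF, -0.28 in AF versus SPF and -0.18 in GF versus SPF, beside medians over all genes tested of -0.02 in AF versus GF, 0.01 in AF versus SPF and 0.02 in GF versus SPF.

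**Figure D2:**
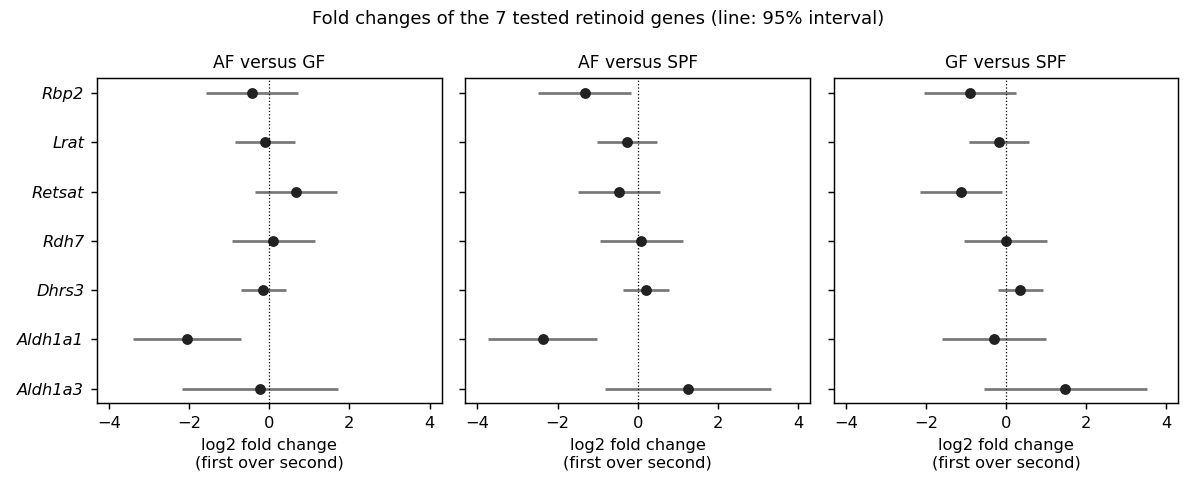
Log2 fold change, first group over second (horizontal), of the 7 tested retinoid genes (vertical) in AF versus GF, AF versus SPF and GF versus SPF, with points for the estimate and lines for its 95% interval. The intervals of Aldh1a1 lie below 0 in both comparisons of AF, and those of Rbp2 in AF versus SPF and Retsat in GF versus SPF also lie below 0, before any adjustment for the number of genes.

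Rbp2 (ENSMUSG00000032454, chr9:98486115-98509781, plus strand, GRCm38) encodes the cellular retinol-binding protein of the enterocyte, which carries retinol and retinal to the enzymes that reduce and esterify them. Its level was 937 and 763 CPM in the AF libraries, 972 and 1307 CPM in the GF libraries and 1412 and 2844 CPM in the SPF libraries. Both AF libraries were below both GF libraries, and both GF libraries below both SPF libraries, although AF replicate 2 and GF replicate 1 lay close together. The group means were 849.9 ± 123 CPM in AF, 1139.8 ± 237 CPM in GF and 2128 ± 1013 CPM in SPF (SD, n = 2 each). On the per-length scale Rbp2 had 1361 and 1472 TPM in AF, 2961 and 2223 TPM in GF and 3969.8 and 4962 TPM in SPF libraries, in the same order of groups and with no overlap.

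By edgeR's quasi-likelihood test the log2 fold change of Rbp2 was -0.42 (SE 0.47, adjusted p = 1.0) in AF versus GF, and its 95% interval ran from -1.57 to 0.73. In AF versus SPF it was -1.32 (SE 0.48, adjusted p = 0.400), with an interval from -2.49 to -0.16. In GF versus SPF it was -0.90 (SE 0.47, adjusted p = 0.742), with an interval from -2.06 to 0.26. SPF replicate 4 weighed on these values, since without it the log2 fold change of Rbp2 was -0.74 in AF versus SPF and -0.32 in GF versus SPF. That library also had the highest sum of enterocyte markers, 2.15 times that of SPF replicate 3, while Rbp2 itself was 2.01 times as high there. Set against each 1000 CPM of the enterocyte markers, a scale chosen after the values were seen, Rbp2 had 36.0 and 39.9 CPM in AF, 58.7 and 46.2 CPM in GF and 59.1 and 55.4 CPM in SPF libraries. On that scale the AF libraries remained the lowest and the GF and SPF libraries overlapped. Apoa1 and Apoa4, which encode apolipoproteins of chylomicrons, made up 35.5% and 26.8% of that marker sum, and the part of the markers in the result was not tested. The 8 markers of the proximal small intestine, all of them with at least 10 counts in every library, summed to 2708 and 2024 CPM in AF, 2508 and 3181 CPM in GF and 3643 and 8379.8 CPM in SPF libraries, and their part in the level of Rbp2 was not tested either. The annotated gene Gm37113 overlaps Rbp2 by 1157 bases on the same strand and had 10 to 34 counts per library.

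Lrat (ENSMUSG00000028003, chr3:82892579-82903973, minus strand) encodes lecithin retinol acyltransferase, which esterifies the retinol held by the binding protein. It had 15.0 and 16.04 CPM in the AF libraries, 16.5 and 16.8 CPM in the GF libraries and 13.5 and 24.1 CPM in the SPF libraries. The AF and GF values lay within a narrow band that the 2 SPF libraries enclosed. By edgeR's quasi-likelihood test its log2 fold change was -0.10 (95% interval -0.85 to 0.65) in AF versus GF, with an adjusted p of 1.0, so that the interval leaves room for a change of either sign. The interval was -1.02 to 0.47 in AF versus SPF and -0.92 to 0.57 in GF versus SPF. The ratio of Rbp2 to Lrat within a library, both in TPM, was 497 to 651 in AF, 617 to 817 in GF and 1094 to 1237 in SPF libraries, with SPF above the others and AF and GF overlapping.

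Retsat (ENSMUSG00000056666, chr6:72598475-72608425, plus strand) encodes retinol saturase, which converts retinol to dihydroretinol. Its level was 100.1 and 72.4 CPM in the AF libraries, 63.8 and 44.8 CPM in the GF libraries and 76.3 and 162 CPM in the SPF libraries. Both GF libraries were below all AF and SPF libraries, and AF and SPF overlapped. The group means were 86.3 ± 19.6 CPM in AF, 54.3 ± 13.4 CPM in GF and 119 ± 60.7 CPM in SPF (SD, n = 2 each).

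By edgeR's quasi-likelihood test the log2 fold change of Retsat was 0.67 (SE 0.42, adjusted p = 1.0) in AF versus GF, -0.47 (SE 0.41, adjusted p = 0.720) in AF versus SPF and -1.13 (SE 0.42, adjusted p = 0.738) in GF versus SPF. Without SPF replicate 4 it was 0.17 in AF versus SPF, the opposite sign, and -0.50 in GF versus SPF. Without any filter on low counts, which brings 22763 genes into the fit, the adjusted p of Retsat in GF versus SPF was 0.0252, and over all alternatives it ran from 0.0252 to 1.0. In TPM the GF libraries did not stand below the rest, with 37.2 and 33.6 TPM in AF, 50.5 and 22.2 TPM in GF and 51.7 and 67.5 TPM in SPF libraries. The order of the groups for Retsat was thus not the same on both scales. CPM carry the TMM scaling and TPM do not. The TMM factor of the library total was 0.791 and 0.998 in AF, 1.41 and 0.872 in GF and 1.25 and 0.824 in SPF libraries. It was highest in GF replicate 1, and a higher factor lowers the CPM of every gene in that library. The length of Retsat that RSEM weights by the abundance of its 6 transcripts was 2114 and 2232 bases in AF, 2077 and 1874 bases in GF and 2232 and 2243 bases in SPF libraries, lowest in GF replicate 3. Gm45053 lies on the opposite strand over 2499 bases of Retsat and had 2 to 11.2 counts per library.

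Rdh7 (ENSMUSG00000040134, chr10:127884028-127888817, minus strand) encodes a microsomal short-chain dehydrogenase of the family that oxidises retinol to retinal. It had 117 and 107 CPM in the AF libraries, 128 and 81.3 CPM in the GF libraries and 66.0 and 145 CPM in the SPF libraries. All 3 groups overlapped, and SPF held both the lowest and the highest library. The group means were 112 ± 6.69 CPM in AF, 105 ± 33.2 CPM in GF and 105.5 ± 55.8 CPM in SPF (SD, n = 2 each). The 95% interval of the log2 fold change of Rdh7 was -0.94 to 1.13 in AF versus GF, -0.95 to 1.12 in AF versus SPF and -1.05 to 1.03 in GF versus SPF, with adjusted p of 1.0 in AF versus GF, 0.964 in AF versus SPF and 0.997 in GF versus SPF by edgeR's quasi-likelihood test. The direction of these small values depended on the scaling. Its paralogue Rdh9 lies on the same chromosome. The ratio of Rdh7 to Rdh9 in TPM was 4.13 to 5.63 in AF, 2.90 to 5.46 in GF and 2.25 to 2.34 in SPF libraries, so that SPF lay below AF and GF. Rdh9 itself had 37.7 ± 10.2 CPM in AF, 39.2 ± 7.58 CPM in GF and 67.4 ± 36.4 CPM in SPF (SD, n = 2 each), and its log2 fold change in AF versus SPF was -0.84 (SE 0.42, adjusted p = 0.506 by edgeR's quasi-likelihood test). Without SPF replicate 4 the value of Rdh9 was -0.15. The standard deviation that RSEM gives for the count of Rdh7 was at most 0.0289% of the count. It reflects only RSEM's own split of shared reads, and the part of wrongly assigned reads was not tested. Of further paralogues on chromosome 10, Rdh16 had 1.38 to 3.05 TPM, Rdh1 had 0.04 to 0.18 TPM and Rdh19 had at most 0.04 TPM.

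Dhrs3 (ENSMUSG00000066026, chr4:144892827-144928209, plus strand) encodes a reductase that returns retinal to retinol and is known as a gene induced by retinoic acid. It had 31.1 and 31.8 CPM in the AF libraries, 33.2 and 36.4 CPM in the GF libraries and 22.0 and 32.4 CPM in the SPF libraries. Both AF libraries lay just below both GF libraries, both GF libraries lay above both SPF libraries, and AF and SPF overlapped. Its log2 fold change by edgeR's quasi-likelihood test was -0.15 (95% interval -0.71 to 0.42) in AF versus GF, 0.21 (-0.36 to 0.78) in AF versus SPF and 0.36 (-0.21 to 0.92) in GF versus SPF, with adjusted p of 1.0 in AF versus GF, 0.783 in AF versus SPF and 0.781 in GF versus SPF. On TPM with limma the value in AF versus SPF had the opposite sign, -0.17, where the median of all genes was itself shifted by -0.32. In TPM Dhrs3 had 17.4 and 22.4 in AF, 37.5 and 23.7 in GF and 22.9 and 21.9 in SPF libraries.

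Aldh1a1 (ENSMUSG00000053279, chr19:20492715-20643465, plus strand) encodes a cytosolic retinal dehydrogenase, one of the enzymes that make retinoic acid. It had 47.6 and 40.6 CPM in the AF libraries, 242 and 126 CPM in the GF libraries and 124 and 333 CPM in the SPF libraries. Both AF libraries were far below every GF and SPF library, whose lowest value, in SPF replicate 3, was 124 CPM, and GF and SPF overlapped. The group means were 44.1 ± 4.92 CPM in AF, 184 ± 81.7 CPM in GF and 229 ± 148 CPM in SPF (SD, n = 2 each). In TPM the AF libraries had 18.3 and 20.7, the GF libraries 194 and 56.5, and the SPF libraries 92.3 and 153, with the same gap.

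By edgeR's quasi-likelihood test Aldh1a1 was 4.18-fold lower in AF than in GF, with a log2 fold change of -2.06 (SE 0.55, 95% interval -3.41 to -0.71) and an adjusted p of 1.0 over 13644 genes. The adjusted p over the alternatives ran from 4.23e-06 with no filter on low counts to 1.0, and it was 0.0474 by DESeq2's Wald test. The fit with no filter called more genes in general, with 264 calls in AF versus GF against 2 in the main analysis. Against SPF the level in AF was 5.18-fold lower, a log2 fold change of -2.37 (SE 0.56, 95% interval -3.74 to -1.01), with an adjusted p of 0.361. Here DESeq2 gave an adjusted p of 0.00230, edgeR's likelihood ratio test 0.00820 and the fit without SPF replicate 3 a value of 0.0274, and the range over the alternatives was 2.33e-08 to 1.0. Both AF log2 fold changes of Aldh1a1 were below 0 in each of the 16 alternatives, from -2.53 to -1.52 against GF and from -2.92 to -1.50 against SPF. The values nearest to 0 came without GF replicate 1 (-1.52) and without SPF replicate 4 (-1.50), and the value furthest from 0 against SPF came without SPF replicate 3. In GF versus SPF the log2 fold change was -0.31 (SE 0.53, adjusted p = 0.905), and its sign turned without GF replicate 3 (0.08) or without SPF replicate 4 (0.56). The AF comparisons share their AF libraries, so that a low AF level enters both.

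The gap in Aldh1a1 was also present against other retinoid genes of the same library, a view chosen after the values were seen. The TPM ratio of Aldh1a1 to Rdh7 was 0.303 and 0.326 in the AF libraries, against 1.24 to 1.51 in GF and 1.51 to 1.84 in SPF libraries. The ratio to Retsat was 0.491 to 0.615 in AF, 2.55 to 3.84 in GF and 1.79 to 2.26 in SPF libraries. The ratio to Rbp2, a gene that was itself lowest in AF, was 0.0134 to 0.0140 in AF, 0.0254 to 0.0656 in GF and 0.0232 to 0.0308 in SPF libraries. AF was below GF and SPF without overlap in each of these and in the ratios to Lrat and Dhrs3. Per 1000 CPM of enterocyte markers, Aldh1a1 had 1.83 and 2.12 CPM in AF, 14.6 and 4.47 CPM in GF and 5.21 and 6.49 CPM in SPF libraries. The enterocyte marker sums of the AF libraries, 26004 and 19139 CPM, lay within the span of the GF libraries, 16570.3 and 28272 CPM. Crypt markers summed to 568 and 1109 CPM in AF, beside 516 to 2621 CPM in GF and 60.4 to 923 CPM in SPF libraries. The AF sums lay within the GF span here too, but this depended on Lyz1, which is also listed as a marker of Paneth cells. Lyz1 alone gave 372 and 789 CPM in the AF libraries, 308 to 2087 CPM in GF and 9.53 to 470 CPM in SPF libraries. The crypt sum therefore does not measure dividing cells alone. Other marker lists set AF apart from every other library as Aldh1a1 did. The 9 lymphocyte markers summed to 14.1 and 10.9 CPM in AF, 29.0 and 283 CPM in GF and 167 and 63.3 CPM in SPF libraries, with Cd79a and Jchain at 0 in AF replicate 2, GF replicate 3 and SPF replicate 4. The 6 myeloid markers summed to 4.08 and 4.69 CPM in AF, 8.90 and 12.7 CPM in GF and 12.4 and 7.13 CPM in SPF libraries, with Adgre1 at 0 in AF replicate 3. The 5 markers of tuft cells, a chemosensory epithelial type, were higher in AF, with 207 and 199.7 CPM in AF, 103 and 144 CPM in GF and 64.1 and 12.1 CPM in SPF libraries, and Pou2f3 was at 0 in SPF replicate 4. The part of these cell types in the level of Aldh1a1 was not tested.

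**Figure D3:**
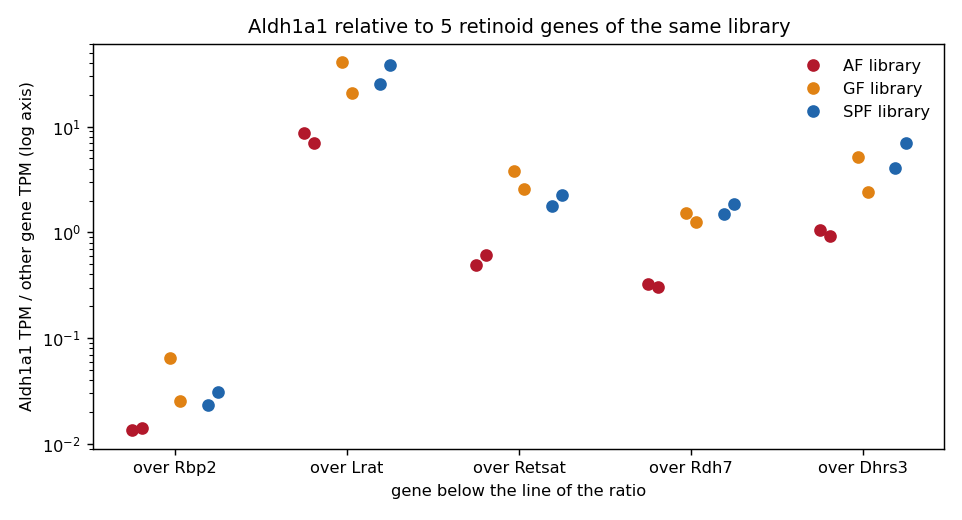
TPM of Aldh1a1 divided by TPM of another retinoid gene of the same library, on a log axis (vertical), for 5 such genes (horizontal), with a point for each AF, GF and SPF library. The AF points lie below the GF and SPF points for all 5 genes, for example 0.303 and 0.326 over Rdh7 in AF against at least 1.24 in the other libraries.

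In the SPF and the GF pair of libraries Aldh1a1 differed by a larger ratio than the other 5 genes above 1 CPM. Its level in SPF replicate 4 was 2.68 times that in SPF replicate 3, where Rdh7, Retsat and Rbp2 had ratios of 2.20, 2.13 and 2.01, Lrat and Dhrs3 of 1.79 and 1.47, and the summed markers of the proximal small intestine of 2.30. In GF replicate 1 Aldh1a1 was 1.91 times, Rdh7 1.58 times and Rbp2 0.744 times the level in GF replicate 3, although the enterocyte marker sum was 0.586 times as high there. The 2 AF libraries were closer, with ratios of replicate 2 to replicate 3 of 1.17 for Aldh1a1, 1.23 for Rbp2 and 1.38 for Retsat. The only transcript of Aldh1a1 in the deposited tables begins at 20601961 and lies in the second of its RefSeq windows, so that use of the more distant start was not measured. For Aldh1a1 the standard deviation from RSEM was at most 0.0177% of its count, which again reflects only RSEM's own split of shared reads.

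Aldh1a7 is a neighbour and close paralogue of Aldh1a1 on chromosome 19, with weak or no known activity on retinal. It had 9.03 and 7.49 CPM in the AF libraries, 27.6 and 16.6 CPM in the GF libraries and 20.6 and 56.7 CPM in the SPF libraries, so that AF was again below every other library. By edgeR's quasi-likelihood test its log2 fold change was -1.42 (SE 0.52, adjusted p = 1.0) in AF versus GF and -2.22 (SE 0.53, adjusted p = 0.370) in AF versus SPF. Over the alternatives the adjusted p ran from 6.44e-04 to 1.0 in AF versus GF and from 4.70e-10 to 1.0 in AF versus SPF, and without SPF replicate 4 the log2 fold change against SPF was -1.32. The TPM ratio of Aldh1a1 to Aldh1a7 was 5.31 to 5.47 in AF, 7.68 to 8.82 in GF and 5.92 to 6.09 in SPF libraries. Aldh1a2, the retinal dehydrogenase of dendritic and stromal cells, had at most 0.08 TPM in any library.

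Aldh1a3 (ENSMUSG00000015134, chr7:66390890-66427517, minus strand), a further retinal dehydrogenase, was near the floor. It had 11 and 8 counts in the AF libraries, 12 and 17 counts in the GF libraries and 6 and 4 counts in the SPF libraries, which came to 0.864 and 0.475 CPM in AF, 0.437 and 1.15 CPM in GF, and 0.275 and 0.274 CPM in SPF. On unscaled totals it reached the minimum of the low-count filter, 0.58 CPM, in AF replicate 2 and both GF libraries only. AF and GF overlapped, and both SPF libraries were lower than all of them. The log2 fold change of Aldh1a3 was -0.23 (SE 0.80) in AF versus GF, 1.25 (SE 0.85) in AF versus SPF and 1.48 (SE 0.84) in GF versus SPF, with adjusted p of 1.0 in AF versus GF, 0.617 in AF versus SPF and 0.748 in GF versus SPF by edgeR's quasi-likelihood test. The gene entered the test through AF and GF libraries, so that a level above SPF there is no support for a difference.

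Cyp26b1 (ENSMUSG00000063415, chr6:84571414-84593908, minus strand) encodes an enzyme that oxidises retinoic acid to polar products. It had 5 and 2 counts in the AF libraries, 5 and 0 counts in the GF libraries and 5 and 3 counts in the SPF libraries, or 7 counts in AF, 5 in GF and 8 in SPF. The count of 0 in GF replicate 3 allows a level of up to 0.204 CPM, and no difference was detectable at this depth. Of its relatives Cyp26a1 and Cyp26c1, also clearance enzymes, neither passed the filter, so that no gene of retinoic acid clearance was tested.

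Rarb (ENSMUSG00000017491, chr14:16430839-16819156, minus strand) encodes retinoic acid receptor beta and is itself a known target of retinoic acid through the repeat shown above. It had 3 and 2 counts in the AF libraries, 1 and 4 counts in the GF libraries and 3 and 1 counts in the SPF libraries, between 0.02 and 0.08 TPM. These counts lie around the floor in every library, and no difference was detectable. Top2b lies on the opposite strand over 4624 bases of Rarb and had 407 to 1226 counts per library. No source used here gives the strand setting of the counting, so that the few reads of Rarb cannot be told apart from reads of Top2b in that stretch. Of the other receptor genes, Rxrg had 0 counts in all 6 libraries, while Rara, Rarg, Rxra and Rxrb had enough counts to be tested. Rara had 29.3 ± 5.37 CPM in AF, 31.4 ± 4.29 CPM in GF and 34.1 ± 9.02 CPM in SPF (SD, n = 2 each). Rarg, a further retinoic acid receptor, had 0.995 CPM in AF, 1.72 CPM in GF and 0.652 CPM in SPF on average. Rxrb, a partner of these receptors, had 52.3 ± 1.69 CPM in AF, 36.5 ± 9.28 CPM in GF and 37.3 ± 4.13 CPM in SPF (SD, n = 2 each).

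Where both libraries of 1 group lay beyond both of the other, 4 of the 7 tested genes were lower (Aldh1a1, Dhrs3, Lrat and Rbp2) and 1 higher (Retsat) in AF than in GF, when 17.8% of all genes were lower and 15.8% higher in this way. In AF versus SPF 2 were lower (Aldh1a1 and Rbp2), against 22.6% of all genes, and 1 was higher (Aldh1a3), against 22%. In GF versus SPF 2 were lower (Rbp2 and Retsat), against 17.1%, and 2 were higher (Aldh1a3 and Dhrs3), against 16.8%. Aldh1a3 reached the minimum of the low-count filter in AF and GF libraries only. Its place above SPF in both comparisons is therefore no support for a difference. For Lrat and Dhrs3 in AF versus GF the gap was small, the means being 15.5 CPM in AF and 16.6 CPM in GF for Lrat, and 31.4 CPM in AF and 34.8 CPM in GF for Dhrs3.

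Of 55 further genes of retinoid uptake, binding, conversion, signalling and response, 41 were tested. None passed in GF versus SPF by edgeR's quasi-likelihood test, where 4 had an unadjusted p below 0.05. There DESeq2 called 1, as did the likelihood ratio test of edgeR, when they called 0.586% and 0.711% of all genes. In AF versus GF and in AF versus SPF 1 gene passed, Isx, beside 0.0147% and 0.044% of all genes. In these comparisons 7 and 13 genes, of either direction, had an unadjusted p below 0.05. The share of all genes at that threshold was taken for lower genes only. These counts, and the 4 in GF versus SPF, therefore have no background here. DESeq2 and edgeR's likelihood ratio test each called 4 of the 41 in AF versus GF and 9 in AF versus SPF. Of all genes they called 0.381% and 0.388% in AF versus GF, and 2.03% and 2.18% in AF versus SPF. The median log2 fold change of the 41 was -0.17 in both AF comparisons and -0.03 in GF versus SPF.

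Isx encodes an intestinal homeobox repressor that retinoic acid is known to induce and that represses Scarb1 and Bco1. It had 1.34 and 0.832 CPM in the AF libraries, 81.1 and 82.0 CPM in the GF libraries and 71.4 and 94.9 CPM in the SPF libraries. It fell by 6.25 on the log2 scale in AF versus GF (SE 0.34, adjusted p = 0.0186 by edgeR's quasi-likelihood test) and fell by 6.27 in AF versus SPF (SE 0.34, adjusted p = 0.0156). Over the alternatives the adjusted p of Isx ran from 1.62e-52 to 0.442 in AF versus GF and from 2.76e-53 to 0.265 in AF versus SPF. It was above 0.05 in both comparisons when any single AF or GF library was left out, and 0.0645 in AF versus SPF in a fit of those 2 groups alone, with the log2 fold change at -5.94 to -6.60 against GF and -5.97 to -6.63 against SPF over the fits that leave out 1 library.

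Bco1, which cleaves beta-carotene to retinal, and Scarb1, a scavenger receptor that takes up carotenoids, were picked after their values were seen. Bco1 had 1149 and 899.9 CPM in the AF libraries, 6.45 and 21.6 CPM in the GF libraries and 3.98 and 9.60 CPM in the SPF libraries. Scarb1 had 730.5 and 558 CPM in the AF libraries, 6.60 and 16.2 CPM in the GF libraries and 9.57 and 30.9 CPM in the SPF libraries. For both genes the AF libraries were above all others by a factor of more than 10. Of the 6 tested genes of uptake and carotenoid cleavage, 3 had a log2 fold change above 0 and 3 below 0 in each AF comparison. Cd36, of the same role and also picked after its values were seen, was lower in AF. It had 11.1 and 7.72 CPM in AF, 32.4 and 36.1 CPM in GF and 22.2 and 35.4 CPM in SPF libraries. The log2 fold change of Bco1 was 6.20 (SE 0.82) in AF versus GF and 7.24 (SE 0.86) in AF versus SPF, with adjusted p of 0.563 and 0.163 by edgeR's quasi-likelihood test. That of Scarb1 was 5.83 (SE 0.79) in AF versus GF and 4.99 (SE 0.76) in AF versus SPF, with adjusted p of 0.563 and 0.259. Both genes were called in both comparisons by DESeq2, by the likelihood ratio test of edgeR, by limma on TPM, and by the quasi-likelihood test on library totals alone or with no filter on low counts, so that their place beyond the threshold depends on the test, the scaling and the filter.

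**Figure D4:**
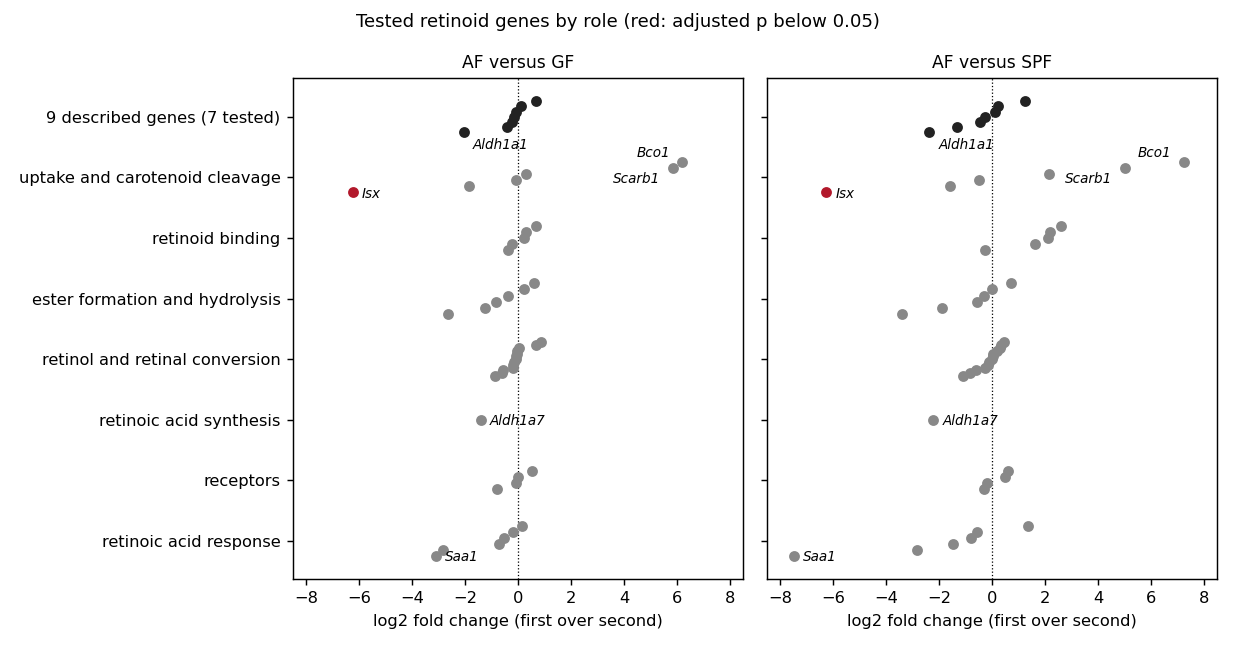
Log2 fold change, first group over second (horizontal), in AF versus GF and AF versus SPF, of the 7 tested of the 9 genes (black) and the 41 other tested retinoid genes (grey) by role (vertical), with red for an adjusted p below 0.05. Isx at -6.25 and -6.27 is the only red point in each panel, Bco1 and Scarb1 lie at the other end, and Saa1, with 1 read in the AF libraries together, has a fitted value that depends on the prior count.

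In the remaining roles edgeR's quasi-likelihood test called no gene, whereas some were called under alternatives. The lowest adjusted p over the alternatives in AF versus SPF was 1.84e-04 for Ces1d, 6.03e-05 for Tgm2 and 2.76e-12 for Saa1, and the highest was 1.0 for each. Of the esterases, Ces1d had 4.64 ± 0.766 CPM in AF and 17.2 ± 9.12 CPM in SPF (SD, n = 2 each), a log2 fold change of -1.89 (SE 0.49, adjusted p = 0.381 by edgeR's quasi-likelihood test), and -1.22 without SPF replicate 4. Ces1e had 7.26 ± 0.826 CPM in AF and 17.2 ± 5.89 CPM in GF. Its log2 fold change was -1.24 (SE 0.32, adjusted p = 1.0), and -0.84 without GF replicate 1. Tgm2, a transglutaminase gene induced by retinoic acid, had 28.8 ± 5.78 CPM in AF and 80.7 ± 36.2 CPM in SPF, a log2 fold change of -1.48 (SE 0.37, adjusted p = 0.381), and -0.94 without SPF replicate 3. Saa1, an acute-phase protein gene, had 0 and 1 counts in the AF libraries, 2 and 10 counts in the GF libraries and 222 and 63 counts in the SPF libraries. Its log2 fold change in GF versus SPF was -4.38 (SE 1.08, adjusted p = 0.738), with -3.41 to -6.52 when 1 library was left out. Ttr, which carries retinol with its binding protein in blood, had 8.80 and 5.53 CPM in the AF libraries, 5.65 and 6.17 CPM in the GF libraries and 2.70 and 0.412 CPM in the SPF libraries, so that the SPF libraries were lowest and differed widely between themselves. Its adjusted p by edgeR's quasi-likelihood test was 0.400 in AF versus SPF and 0.738 in GF versus SPF. The 7 enteroendocrine markers, all of them with at least 10 counts in every library, were also lowest in SPF, with sums of 2490 and 3286 CPM in AF, 1568 and 3927 CPM in GF and 1365 and 343 CPM in SPF libraries, and their part in the level of Ttr was not tested. Rdh16, a further retinol dehydrogenase, had 8.30 ± 2.15 CPM in AF, 4.59 ± 0.0594 CPM in GF and 8.09 ± 2.43 CPM in SPF.

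The genes with the pattern most like each tested gene were taken by Pearson's r of log2 CPM over the 6 libraries, among 8708 genes (8709 for Aldh1a3) with a mean of at least 5 CPM. They rest on 6 points and a search over many candidates, and the values are given as a description only. For Aldh1a1 these were Chdh (r = 0.995) and Malrd1 (0.994), and for Rbp2 Fam78a (0.999) and Abcb10 (0.9985). For Retsat they were Rab11a (0.995) and Lurap1l (0.993), for Rdh7 Nmnat3 (0.991) and Tmem143 (0.968), and for Dhrs3 Ccdc28a (0.990) and Spag5 (0.979). For Lrat they were Trappc4 (0.996) and Tesk2 (0.984), and for Aldh1a3 Pisd-ps1 (0.988) and Vamp2 (0.984). Among the 7 tested genes r ran from -0.559 between Aldh1a3 and Retsat to 0.749 between Rbp2 and Aldh1a1. It was 0.722 between Rbp2 and Lrat, 0.255 between Aldh1a1 and Rdh7, -0.443 between Aldh1a3 and Aldh1a1 and -0.432 between Aldh1a3 and Rbp2.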

How the data were processed

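Groups were taken from the sample titles. Per the labels, RNA was purified on RNeasy columns and made into libraries with a TruSeq kit. STAR 2.5.2b, edgeR 3.16.5, RSEM and the GRCm38 build are named by the submitters' processing notes. For RSEM's version, the annotation release and the strand setting no source used here gives a statement. What the authors deposited, per the file headers, are tables with expected counts for each gene, in which RSEM splits shared reads by estimate, with no scaling between libraries. Per the file headers they also deposited TPM, which RSEM scales by effective length to a fixed total per library. These steps leave counts of near-identical genes uncertain and let TPM move with the most abundant genes.

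Expected counts were rounded, 23.5% of the values above 0 not being whole. Of the 51912 IDs, 51633 had a symbol in GENCODE M21 (GRCm38), which also gave the genes' 1-based coordinates; promoter sequences are from a RefSeq table of GRCm38.p6. All 6 libraries entered 1 fit with edgeR's quasi-likelihood F test (filterByExpr at defaults, TMM, 13644 genes tested), with 3 residual and 3.08 prior degrees of freedom and a common biological coefficient of variation of 0.368. The threshold for a call was a p of 0.05 after Benjamini-Hochberg adjustment. The standard error is the size of the log2 fold change over the root of F, and intervals use the t distribution on the summed degrees of freedom. The floor of 3 counts covers counting error only. The tools were edgeR 4.0.16, DESeq2 1.42.0 and limma 3.58.1 in R 4.3.3, and the fits were tested on simulated data.

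The 9 genes, the other 55 retinoid genes and the marker lists were chosen with earlier results of these data known. Named besides the 9 were genes with an adjusted p below 0.05, otherwise up to 2 per role with the smallest p for any difference among groups, the paralogues of the 9, and for each tested gene the 2 genes of the highest Pearson correlation. Alternatives were DESeq2, edgeR's likelihood ratio test, median-of-ratios scaling, no filter, genes kept at 1 CPM in 2 libraries, limma on log2(TPM + 1) and log2(TPM + 0.1) where 2 libraries had a TPM of at least 1, offsets of effective length, fits of the 2 groups alone, and leaving out each library. Library totals alone, within-library ratios and levels per enterocyte marker were added after seeing the data.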

Additional observations from a re-analysis of the deposited data

How the results depend on the processing

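No paired analysis was possible because the groups compared share only replicate number 3, fewer than the 2 numbers a block needs. Of the 9 genes, the number called was 1 in AF versus GF with DESeq2 and with no filter, 1 in AF versus SPF with DESeq2, the likelihood ratio test and no filter, and 1 in GF versus SPF with no filter, against 0 in each. In the test for any difference it was 1 with DESeq2 and the likelihood ratio test and 2 with no filter, against 0. In the main analysis 0.0293% of all genes passed that test. The share of all genes was not computed for it under the other settings, so these counts have no background here. Among the other retinoid genes, DESeq2, the likelihood ratio test and no filter called 4, 4 and 6 in AF versus GF, 9, 9 and 14 in AF versus SPF and 1, 1 and 5 in GF versus SPF. Both limma fits and library totals called 3 in each AF comparison, and the fit of 2 groups called 0 in AF versus SPF. Over all genes, AF versus GF had 51, 53 and 264 calls by those 3 settings, 9 and 5 by limma, 1 with length offsets, 8 with 2 groups and 4 on totals, against 2. AF versus SPF had 272, 298 and 804 calls and 2 with 2 groups, against 6. GF versus SPF had 80, 97 and 484 calls, 5 and 4 by limma, and 0 with 2 groups and on totals, against 2. The calls with no filter were among 22763 genes and those of the main analysis among 13644. Of the calls in the main analysis 50% were higher in AF versus GF, 66.7% in AF versus SPF and 100% in GF versus SPF, whereas DESeq2 gave 25.5%, 40.4% and 50%. The cause of these differences was not tested.

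Some small log2 fold changes turned sign. Library totals alone gave 0.075 for Aldh1a1, 0.048 for Lrat and 0.32 for Rdh7 in GF versus SPF, and -0.34 in AF versus GF and -0.017 in AF versus SPF for Rdh7. This scaling shifted the median of all genes by 0.14 in GF versus SPF, -0.36 in AF versus GF and -0.22 in AF versus SPF. Limma on TPM + 1 and TPM + 0.1 gave -0.17 and -0.18 for Dhrs3 in AF versus SPF, and for Rdh7 -0.31 and -0.31 in AF versus GF, -0.20 and -0.21 in AF versus SPF and 0.10 and 0.10 in GF versus SPF, with median shifts of -0.34 and -0.40 in AF versus GF and -0.32 and -0.37 in AF versus SPF. For Rdh7 in GF versus SPF the 1 CPM filter gave 2.2e-04 and the fit of 2 groups 0.028. With each library left out in turn, Aldh1a1 ran from -0.86 to 0.56 and Lrat from -0.54 to 0.29 in GF versus SPF, and Aldh1a3 from -0.79 to 0.59 in AF versus GF. In AF versus SPF, Dhrs3 ran from -0.048 to 0.51, Lrat from -0.64 to 0.20 and Retsat from -0.91 to 0.17. Rdh7 ran from -0.20 to 0.46 in AF versus GF, -0.38 to 0.76 in AF versus SPF and -0.47 to 0.66 in GF versus SPF. The calls then ran from 0 to 1 of the 9 genes, 0 to 11 of the others and 0 to 625 of all genes in AF versus SPF. They ran from 0 to 2 of the others and 0 to 9 of all genes in AF versus GF, and from 0 to 4 and 0 to 369 in GF versus SPF. The highest counts came without SPF replicate 3, and the lone library of a group was then assumed to vary like the rest. Having 2 libraries a group limits all of these comparisons, and depth limits Aldh1a3, Cyp26b1 and Rarb.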
